A study of Mus musculus with 24 samples.

Results

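The genes of ISG15 conjugation were followed through 24 bulk RNA sequencing libraries of the mouse inner ear and of cochlear organoids. ISG15 is a small protein that resembles ubiquitin and is made in response to interferon. The 6 genes were chosen by name for their place in this pathway, as Isg15 itself, Uba7, Ube2l6, Herc6, Trim25 and Usp18, and each name had 1 row in both count tables, which list 18440 genes for the inner ear and 25190 for the organoids. The choice was made with earlier results of these data in view, so the changes below describe these libraries and support nothing beyond them. All 6 genes passed the filter on low counts in both tables, but Isg15 and Usp18 passed in the organoids through the libraries that received both treatments, because their counts were at or near 0 in the others.

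Conjugation of ISG15 runs through a chain of enzymes like that of ubiquitin. UBA7 activates ISG15 as the E1, UBE2L6 carries it as the E2, and an E3 ligase joins it to lysines of other proteins. The main E3 in mouse cells is HERC6, TRIM25 has been described as another, and USP18 is the protease that removes ISG15 again. USP18 also binds the type I interferon receptor and damps its signal, and most of these genes are themselves switched on by interferon through DNA elements called ISREs.

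In the aging experiment, soft tissue of the inner ear freed of bone was taken from untreated wild-type male C57BL6/J mice at 3, 11 and 20 months of age, with 4 mice per age. In the organoid experiment, epithelium of newborn mouse cochleae was grown and differentiated in culture. These wild-type organoids received lentiviral RBM25 knockdown plus TNF, TNF alone, RBM25 knockdown alone, or neither (control), with 3 libraries per group. TNF is an inflammatory cytokine and RBM25 an RNA-binding protein of the splicing machinery. The sample titles call the RBM25 groups knockouts and the protocol a lentiviral knockdown. For TNF the dose and duration, and for the lentivirus the control vector, are missing from the sources used here. Whether organoid libraries of a group came from separate cultures is also unstated, so p-values in that experiment reflect only the spread among its libraries, which may be technical.

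Total counts per library were 30599012 to 38451292 in the inner ear and 33802411 to 37048422 in the organoids. Replicates varied more in the inner ear, with a biological coefficient of variation of 19.8%, than in the organoids, with 8.04%. Rbm25 stood at 103, 122 and 108 CPM in the organoids with knockdown plus TNF and at 150, 163 and 173 CPM with TNF alone. It stood at 96.9, 94.2 and 92.7 CPM with the knockdown alone and at 142, 148 and 144 CPM in controls, so every knockdown library lay below every library without it, although much of the transcript remained. CPM here are counts scaled to library size with TMM factors. A list of 8 hair cell markers had a summed 354 to 543 CPM in the inner ear libraries and 287 to 705 CPM in the organoid libraries. Not every marker was present in the organoids, where Ocm had at most 2 counts in a group. Slc26a5 had 9 counts with knockdown plus TNF and 11 with the knockdown, beside 128 with TNF and 185 in controls. The inner ear libraries also held markers of neighbouring tissue that varied between mice of one age, such as a mucosal list at 3.76 to 981 CPM among the 20-month libraries.

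The 6 genes lie on 5 chromosomes of GRCm38.p6, the RefSeq assembly of the mm10 build. Isg15 is at chr4:156199424-156200818 on the minus strand. Usp18 at chr6:121245906-121270917 and Herc6 at chr6:57580992-57665136 share a chromosome but are far apart. Uba7 is at chr9:107975567-107984056, Ube2l6 at chr2:84798828-84810003 and Trim25 at chr11:88999403-89020294, all on the plus strand like the pair on chromosome 6. Reads in exon bases shared with another gene cannot be assigned by position, and the libraries do not record the strand. This touches 124 of 2790 exon bases of Usp18, shared with a gene on the opposite strand. It also touches 233 of 6692 of Uba7 and 1269 of 9292 of Herc6, shared with genes on the same strand. No exon base of Isg15, Ube2l6 or Trim25 is shared.

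RefSeq promoter windows, from 250 bases before to 50 bases after the start site, were found for 5 of the 6 genes, all but Usp18. The windows were searched on both strands for GAAANNGAA, the core of an ISRE. Isg15 held 3 overlapping matches, 78 to 58 bases before its start site, and Trim25 held 1 on the opposite strand that ends at the base before the start site. The same letters occur in 8.56% of 32851 promoter windows, and in 12 of the 17 windows found for a list of other interferon-stimulated genes. The windows of Uba7, Ube2l6 and Herc6 held none, and no member held the gamma-activated element TTCNNNGAA (8.30% of all windows) or a kappaB consensus site (4.51%). A match describes letters and not binding, and the lack of one says only that these letters are not in the window. The windows of Isg15, Trim25 and Uba7 are printed to show the stacked matches, the single match at the start site, and a window without a match from a gene that rose with TNF. Capitals mark the ISRE core matches, and each window reads 5′ to 3′ along the gene.
Isg15, chr4:156200769-156201068, minus strand: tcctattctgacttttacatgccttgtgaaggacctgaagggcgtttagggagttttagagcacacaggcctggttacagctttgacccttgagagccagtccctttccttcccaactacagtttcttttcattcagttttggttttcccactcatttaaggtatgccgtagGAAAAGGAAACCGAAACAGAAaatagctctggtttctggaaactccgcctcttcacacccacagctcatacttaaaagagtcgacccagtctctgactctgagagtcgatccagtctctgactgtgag
Trim25, chr11:88999153-88999452, plus strand: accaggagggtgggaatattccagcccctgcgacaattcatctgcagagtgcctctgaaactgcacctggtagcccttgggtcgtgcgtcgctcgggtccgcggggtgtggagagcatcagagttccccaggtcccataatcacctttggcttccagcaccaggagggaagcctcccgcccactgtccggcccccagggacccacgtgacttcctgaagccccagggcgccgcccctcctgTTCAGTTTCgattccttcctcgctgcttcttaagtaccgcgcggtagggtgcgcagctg
Uba7, chr9:107975317-107975616, plus strand: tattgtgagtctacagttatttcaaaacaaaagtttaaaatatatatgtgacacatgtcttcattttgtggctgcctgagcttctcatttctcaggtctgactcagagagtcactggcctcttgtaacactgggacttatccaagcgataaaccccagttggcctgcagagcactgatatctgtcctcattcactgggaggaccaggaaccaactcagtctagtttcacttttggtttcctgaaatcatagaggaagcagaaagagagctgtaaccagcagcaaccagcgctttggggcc

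The first comparison asked whether these genes change with age in the inner ear. At 20 against 3 months, 4 of the 6 rose, both ligase genes among them, and none fell. Herc6 averaged 16.0 ± 2.88 CPM at 20 months and 5.96 ± 0.772 CPM at 3 months, and Trim25 averaged 46.7 ± 4.42 CPM at 20 months and 24.5 ± 3.51 CPM at 3 months (SD, n = 4 each). Uba7 and Usp18 also passed, whereas Isg15 itself and Ube2l6 did not. Over all 15525 genes tested, 12.0% were called higher and 10.7% lower, at an adjusted p under 0.05 in edgeR's quasi-likelihood test with Benjamini-Hochberg adjustment. The median log2 fold change was 1.13 over the 6 genes and 0.01 over all genes tested.

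**Figure D1:**
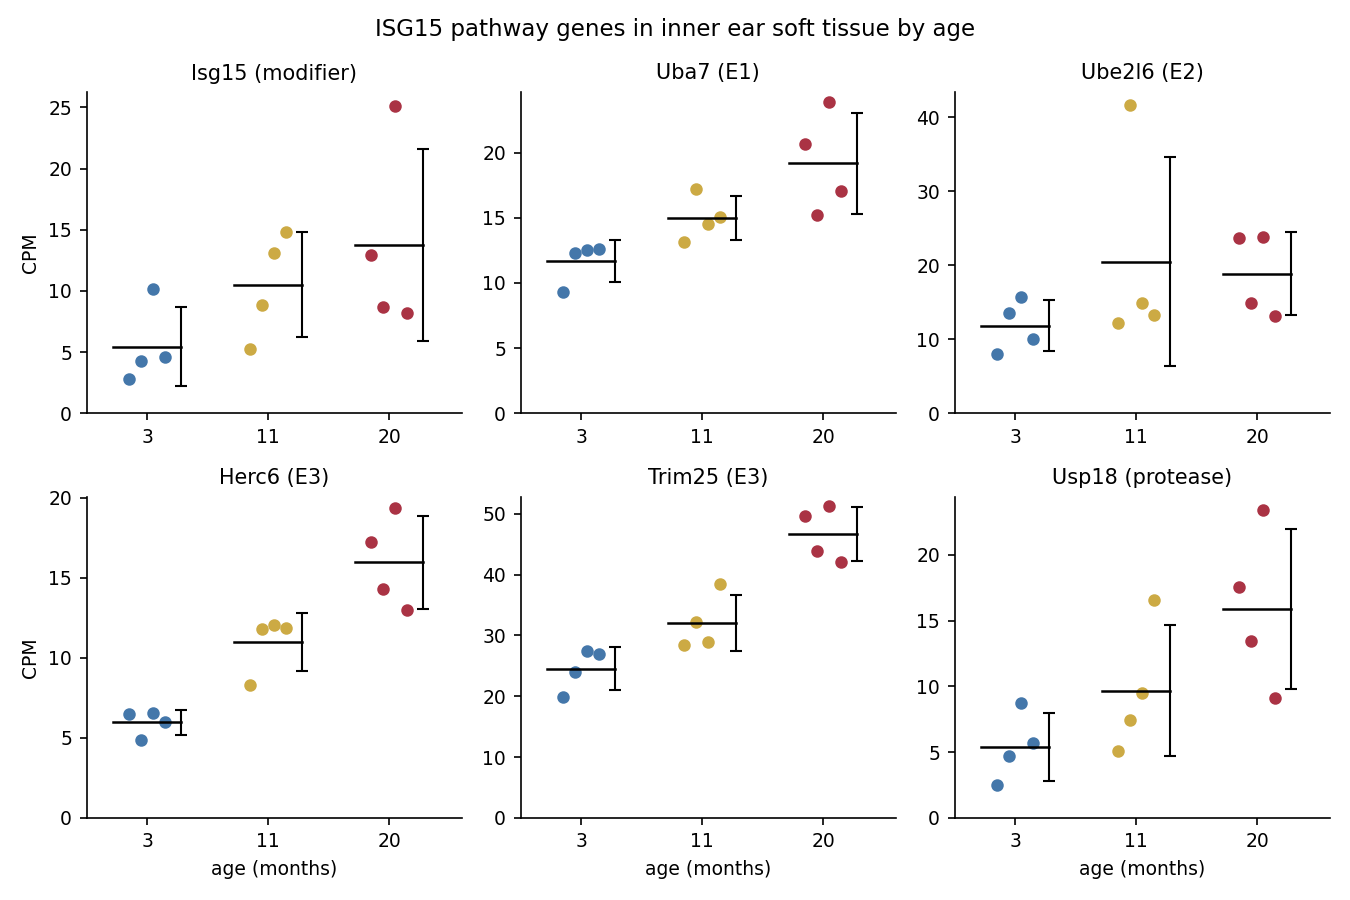
CPM of the 6 genes in the 12 inner ear libraries (y axis, linear from 0) by age in months (x axis), with 1 point per mouse, a line at the mean and a bar of ± 1 SD (n = 4 per age). Herc6 and Trim25 form 3 steps without overlap, while Isg15, Usp18 and Ube2l6 are spread widely within an age, with 1 library of Ube2l6 at 41.7 CPM.

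Isg15, the modifier, had 2.83, 4.25, 10.1 and 4.59 CPM in the 4 libraries of 3 months. It had 5.29, 8.87, 13.1 and 14.8 CPM at 11 months and 12.96, 8.71, 25.1 and 8.19 CPM at 20 months. The ages overlap, because replicate 3 of 3 months lay above 2 of the 4 libraries of 20 months, and the SD at 20 months was 7.88 CPM. The log2 fold change at 20 against 3 months was 1.34 (SE 0.48, edgeR adjusted p = 0.0692), short of the threshold. Without replicate 3 of 3 months it was 1.82 and passed (edgeR adjusted p = 0.0221). Over all fits with 1 library left out it ranged from 0.87 to 1.82, at edgeR adjusted p of 0.0221 to 0.177.

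Uba7, the E1, had 9.31, 12.3, 12.5 and 12.6 CPM at 3 months, 13.2, 17.2, 14.6 and 15.1 CPM at 11 months, and 20.6, 15.2, 23.9 and 17.0 CPM at 20 months. Every library of 11 and of 20 months lay above every library of 3 months, and the 2 older ages overlap. It rose by a log2 fold change of 0.72 at 20 against 3 months (SE 0.15, edgeR adjusted p = 0.00532). Ube2l6, the E2, had 8.07, 13.5, 15.8 and 10.0 CPM at 3 months, 12.3, 41.7, 14.9 and 13.2 CPM at 11 months, and 23.6, 14.9, 23.8 and 13.2 CPM at 20 months. Its ages overlap, and the log2 fold change of 0.67 at 20 against 3 months did not pass (SE 0.41, edgeR adjusted p = 0.261).

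Herc6, the ligase, had 6.48, 4.87, 6.53 and 5.96 CPM at 3 months, 8.30, 11.8, 12.1 and 11.9 CPM at 11 months, and 17.2, 14.3, 19.3 and 12.96 CPM at 20 months. The 3 ages do not overlap at any step. Its log2 fold change at 20 against 3 months was 1.42 (SE 0.16, edgeR adjusted p = 0.000216), the 55th smallest p of the genes tested. Trim25, which also ubiquitinates the RNA sensor RIG-I, had 19.8, 24.0, 27.4 and 26.9 CPM at 3 months, 28.4, 32.3, 28.9 and 38.4 CPM at 11 months, and 49.6, 43.8, 51.3 and 42.1 CPM at 20 months. Its ages do not overlap either, with a log2 fold change of 0.93 (SE 0.12, edgeR adjusted p = 0.000427) at 20 against 3 months.

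Usp18, the protease, had 2.51, 4.68, 8.71 and 5.70 CPM at 3 months, 5.10, 7.48, 9.52 and 16.6 CPM at 11 months, and 17.6, 13.5, 23.4 and 9.13 CPM at 20 months. The lowest library of 20 months lay just above the highest of 3 months, and the 11-month libraries overlap both. Usp18 rose by a log2 fold change of 1.56 at 20 against 3 months (SE 0.44, edgeR adjusted p = 0.0267). This call depended on single libraries. Leaving out 3-month replicate 1, 2 or 4, or 20-month replicate 1 or 3, brought edgeR adjusted p to 0.0577 to 0.0690, at a log2 fold change of 1.31 to 1.58.

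At 11 against 3 months only Herc6 was called, against 0.979% of all genes called higher (log2 fold change 0.88, SE 0.16, edgeR adjusted p = 0.0229). Leaving out 3-month replicate 2 or 4, or 11-month replicate 2, 3 or 4, ended that call, at edgeR adjusted p of up to 0.0809. The other members had log2 fold changes of 0.36 to 0.95 in this comparison, and the median of the 6 was 0.82, beside -0.01 over all genes. At 20 against 11 months Herc6 and Trim25 were called higher, and 7.87% of all genes were. Trim25 had a log2 fold change of 0.55 (SE 0.12, edgeR adjusted p = 0.0134), and lost its call when 11-month replicate 3 was left out (edgeR adjusted p = 0.0540). Herc6 had 0.54 (SE 0.16, edgeR adjusted p = 0.0391) and lost its call when any 1 of the 4 11-month libraries, or 20-month replicate 1 or 3, was left out (edgeR adjusted p of 0.0657 to 0.104). Comparisons that share the libraries of an age are not independent of each other.

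On the FPKM scale, which the authors scaled to gene length, Isg15 was the most abundant of the 6 at 20 months, with 18.4 ± 10.4 FPKM, followed by Ube2l6 with 13.8 ± 4.06 FPKM (SD, n = 4). Usp18 followed at 9.10 ± 3.40 FPKM, Trim25 at 8.47 ± 0.763 FPKM, Uba7 at 6.17 ± 1.21 FPKM and Herc6 at 3.07 ± 0.533 FPKM. The libraries of neighbours in this order overlap from Isg15 down to Trim25. Uba7 lay below Trim25 without overlap but overlapped Usp18, and Herc6 lay below the other 5. At 3 months Ube2l6 led with 8.45 ± 2.47 FPKM and Isg15 had 7.13 ± 4.18 FPKM, which overlap. Herc6 was the lowest there too, at 1.12 ± 0.139 FPKM.

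Isg15 and Usp18 moved together from mouse to mouse. Across the 12 inner ear libraries their log2(CPM + 1) values had a Pearson r of 0.94, and of 0.92 after the mean of each age was removed. Among all pairs of the 6 genes r was 0.52 to 0.94, with a median of 0.83, and the points share the libraries and the change with age. Per library, the ratio of Usp18 to Isg15 FPKM was 0.367 to 0.531 at 3 months, 0.311 to 0.478 at 11 months and 0.397 to 0.661 at 20 months, and these ranges overlap. The genes whose pattern was most like Isg15 were Ifit3 (r 0.98), Tgtp1 (0.96), Ifit1 (0.95), Ifit3b (0.95) and Gbp3 (0.95), over the same 12 libraries. Those most like Usp18 were Irgm1 (0.98), Iigp1 (0.97), Ifi44 (0.97), Rtp4 (0.96) and Igtp (0.96).

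Markers of several cell types moved with age in the same libraries. The summed level of 12 macrophage markers was 152 to 194 CPM at 3 months, 310 to 348 CPM at 11 months and 288 to 534 CPM at 20 months, and 12 of 12 were called higher at 20 against 3 months. Of 9 T and NK cell markers tested 8 were called higher, with sums of 7.77 to 16.0 CPM at 20 months and 1.89 to 3.17 CPM at 3 months. Brain markers summed to at most 271 CPM at 3 months, 628 to 768 CPM at 11 months and 119 to 980 CPM at 20 months, with 2 of 3 called higher at 20 against 3 months. Their highest sum was in replicate 3 of 20 months, which also had the most Isg15. At 3 months their highest sum, 271 CPM, was in replicate 1, which had the least Isg15 (2.83 CPM). Of 5 neuron markers 4 were called lower at 20 against 3 months, as were 3 of 4 muscle markers and 2 of 4 Schwann cell markers. Over all genes tested, 12.0% were called higher and 10.7% lower in that comparison. In bulk tissue, fewer or more cells of a type and less or more RNA per cell cannot be told apart, and the part of these cells in the change of the ISG15 genes was not tested. Replicate 2 of 20 months had the lowest macrophage sum of its age, 288 CPM, below all 4 libraries of 11 months. Other marker sums of that library differed too. Its T and NK cell sum of 7.77 CPM lay above the 5.82 to 6.11 CPM of 11 months. Its mucosal sum of 981 CPM was the highest of its age, and its brain sum of 119 CPM was the lowest. In that library Herc6 (14.3 CPM) and Trim25 (43.8 CPM) lay above all 4 libraries of 11 months. Its Isg15 (8.71 CPM), Usp18 (13.5 CPM), Uba7 (15.2 CPM) and Ube2l6 (14.9 CPM) lay within the range of the 11-month libraries. Replicate 4 of 20 months had a macrophage sum of 508 CPM. It had the lowest Isg15 (8.19 CPM), Usp18 (9.13 CPM), Ube2l6 (13.2 CPM), Herc6 (12.96 CPM) and Trim25 (42.1 CPM) of its age. Its Uba7 (17.0 CPM) lay above that of replicate 2. Whether any of these marker differences bears on the ISG15 genes of either library was not tested.

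**Figure D2:**
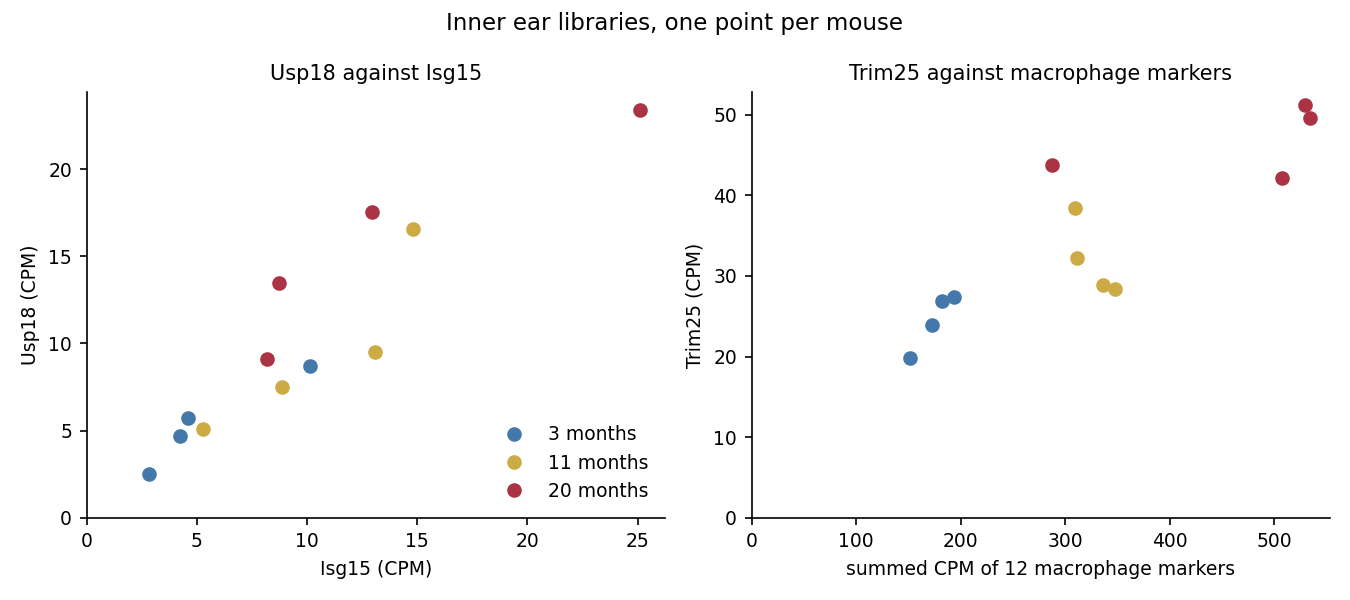
Left, Usp18 against Isg15 in CPM, and right, Trim25 in CPM against the summed CPM of 12 macrophage markers, with 1 point per inner ear library coloured by age and axes from 0. Usp18 follows Isg15 within each age (r 0.92 after age means are removed), and both Trim25 (42.1 to 51.3 CPM) and the macrophage sum (288 to 534 CPM) are higher at 20 months than at 3 months (19.8 to 27.4 CPM and 152 to 194 CPM).

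Genes around the pathway were read from the same fit, where 12.0% of all genes were called higher and 10.7% lower at 20 against 3 months. Among genes of interferon receptors and their signalling, Irf9 stood at 50.2 ± 4.95 CPM at 20 months and 28.3 ± 3.27 CPM at 3 months (log2 fold change 0.82, edgeR adjusted p = 0.000818), and Stat2 had a log2 fold change of 0.48 (edgeR adjusted p = 0.0190). Of 4 IRF genes known to drive interferon-stimulated genes 3 rose, Irf8 by 1.25, Irf7 by 1.40 and Irf1 by 0.69 on the log2 scale, and Irf3 had 0.01. Of 23 other interferon-stimulated genes tested 16 were called higher and none lower, with a median log2 fold change of 1.27, and Parp14, an ADP-ribosyltransferase, averaged 49.2 ± 10.4 CPM at 20 months and 19.3 ± 3.43 CPM at 3 months (edgeR adjusted p = 0.000841).

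The enzymes that run the parallel chains of ubiquitin, NEDD8 and SUMO were read in the same way. Of 13 such genes and HERC relatives tested, 1 was called higher (Herc4, log2 fold change 0.31) and 1 lower (Uba3, the NEDD8 E1 subunit, -0.20) at 20 against 3 months, with a median of -0.12. Of 6 genes for another ligase and for other proteases reported to act on ISG15, none was called higher and Usp13 was called lower (log2 fold change -0.50, edgeR adjusted p = 0.0329). Among 13 tested genes whose proteins have been reported to carry ISG15, 5 were called higher and none lower, led by the RNA sensor and kinase genes Ddx58 (0.98), Eif2ak2 (0.71) and Ifih1 (1.18, all log2 fold changes). Eif2ak2 and Ifih1 are also counted among the other interferon-stimulated genes above. Of 9 interferon ligand genes 5 were listed in the inner ear table and none passed the count filter, and Ifng, the one with the most counts, had 1 at 3 months, 12 at 11 months and 2 at 20 months over all 4 libraries of an age.

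In the organoids the question was how TNF and the loss of RBM25 act, alone and together. The members fell into 3 patterns. Isg15 and Usp18 were close to absent except where both treatments met. Uba7, Ube2l6 and Herc6 rose with TNF alone and rose again when the knockdown was added. Trim25 fell with the knockdown, and its response to TNF was larger in the knockdown. Several comparisons below share the control, the TNF or the doubly treated libraries and are not independent of each other.

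**Figure D3:**
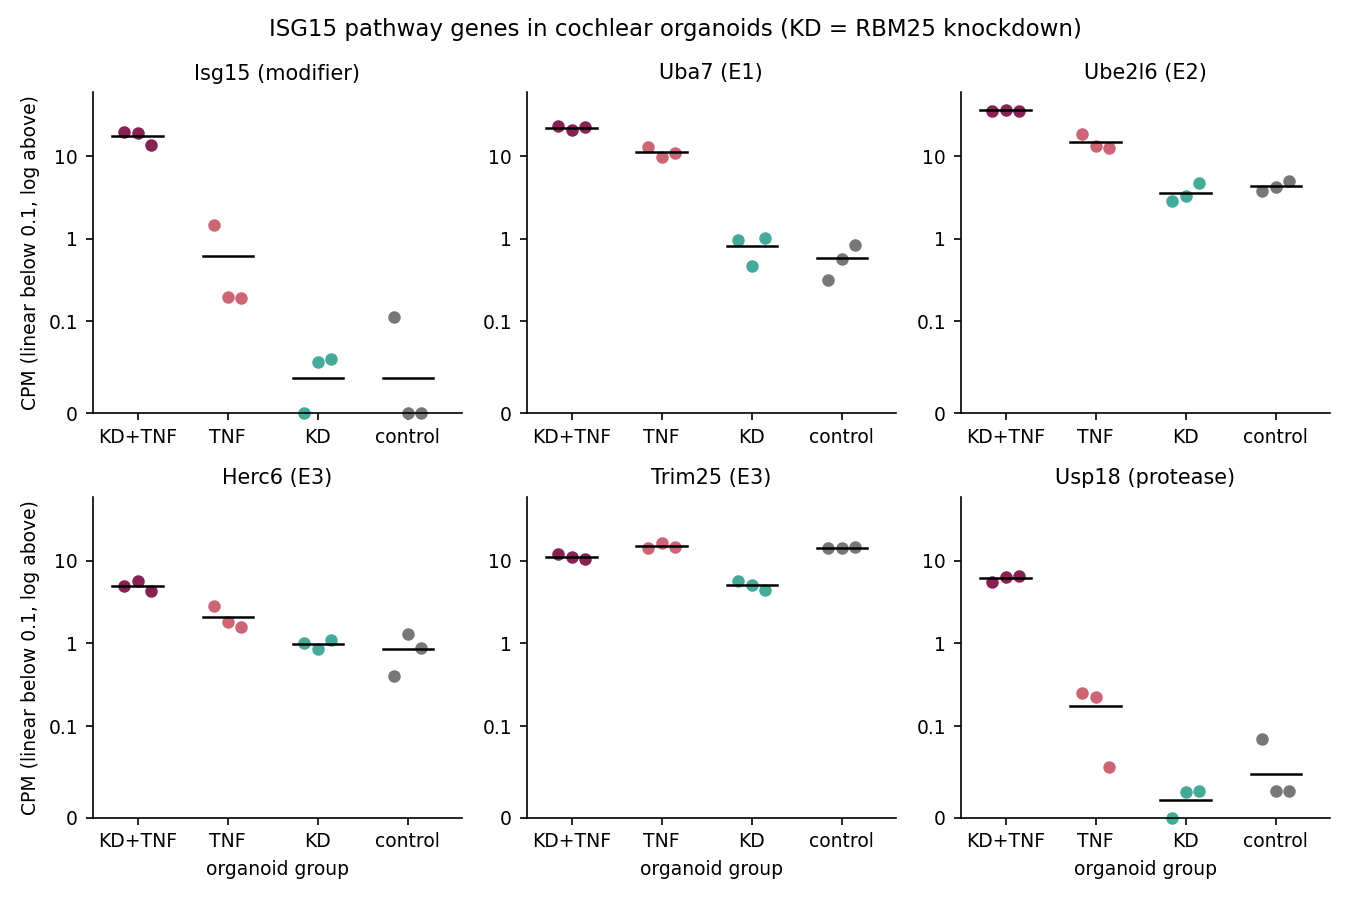
CPM of the 6 genes in the 12 organoid libraries, with 1 point per library and a line at the group mean (n = 3 per group; KD, RBM25 knockdown). The y axis is linear from 0 to 0.1 CPM and logarithmic above. Isg15 and Usp18 lie at 13.8 CPM and 5.59 CPM or more with knockdown plus TNF and at or below 1.49 CPM everywhere else.

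Isg15 had 19.9, 19.2 and 13.8 CPM with knockdown plus TNF and 1.49, 0.196 and 0.195 CPM with TNF alone. It had 0, 0.0557 and 0.0590 CPM with the knockdown alone and 0.115, 0 and 0 CPM in controls. In counts summed over 3 libraries this is 1970 with both, 68 with TNF, 4 with the knockdown and 4 in controls. Replicate 1 holds most of the 68 counts of the TNF group. The ratio of both treatments to control was 457 (exact 95% counting interval 178 to 1679), and that of TNF to control was 16.3 (6.08 to 61.5). These intervals cover counting error only.

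Usp18 had 5.59, 6.33 and 6.52 CPM with knockdown plus TNF and 0.248, 0.224 and 0.0556 CPM with TNF alone. It had 0, 0.0279 and 0.0295 CPM with the knockdown alone and 0.0860, 0.0289 and 0.0294 CPM in controls. Summed counts were 685 with both, 19 with TNF, 2 with the knockdown and 5 in controls. The ratio of both treatments to the knockdown alone was 333 (exact 95% counting interval 91.7 to 2751), whereas that of TNF to control was 3.64 (1.32 to 12.5), and the TNF libraries overlap the controls. Mean Usp18 with TNF alone was 2.86% of that with both treatments, and mean Isg15 was 3.55%.

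Uba7 had 23.1, 20.7 and 22.9 CPM with knockdown plus TNF, 12.8, 9.84 and 10.9 CPM with TNF alone, 0.963, 0.474 and 1.03 CPM with the knockdown and 0.315, 0.578 and 0.853 CPM in controls. Ube2l6 had 35.4, 36.4 and 35.7 CPM with both, 18.8, 13.5 and 12.7 CPM with TNF, 2.86, 3.32 and 4.69 CPM with the knockdown and 3.79, 4.30 and 5.06 CPM in controls. For both enzymes the 2 groups with TNF lie apart from each other and above the other 2, which overlap. Herc6 had 4.92, 5.76 and 4.28 CPM with both, 2.81, 1.82 and 1.58 CPM with TNF, 1.01, 0.864 and 1.09 CPM with the knockdown and 0.401, 1.30 and 0.883 CPM in controls. It keeps the same order, with smaller gaps.

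Trim25 had 12.0, 11.2 and 10.5 CPM with knockdown plus TNF, 14.4, 16.3 and 14.6 CPM with TNF, 5.65, 5.04 and 4.48 CPM with the knockdown and 14.3, 14.4 and 14.5 CPM in controls. It was the one member that was lower in every knockdown library than in every library without the knockdown.

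With TNF alone against control, 3 of the 4 members with at least 60 counts in every group were called higher, all but Trim25. Of the 15888 genes tested, 23.3% were called higher and 24.2% lower. Isg15 and Usp18 were called higher too, but the filter kept them through the doubly treated group. Uba7 rose by a log2 fold change of 4.26 (SE 0.24, edgeR adjusted p = 7.78e-10), Ube2l6 by 1.77 (SE 0.18, edgeR adjusted p = 1.97e-06) and Herc6 by 1.26 (SE 0.32, edgeR adjusted p = 0.00307). Trim25 had a log2 fold change of 0.07 (SE 0.10, edgeR adjusted p = 0.598). The calls of Isg15 (edgeR adjusted p = 0.0352) and Usp18 (edgeR adjusted p = 0.0275) rest on few counts. Isg15 lost its call without any 1 of the 3 control libraries, and Usp18 without replicate 2 or 3 of the controls or replicate 1 or 2 of the TNF group, at edgeR adjusted p of 0.0548 to 0.109.

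With the knockdown alone against control, none was called higher and Trim25 was called lower, where 24.4% of all genes were called higher and 28.2% lower. Trim25 fell by 1.51 on the log2 scale (SE 0.10, edgeR adjusted p = 6.43e-10). The others had edgeR adjusted p of 0.208 to 0.987. Uba7 passed when replicate 3 of the controls or replicate 2 of the knockdown was left out, with log2 fold changes of 0.88 and 0.78, and Ube2l6 passed when replicate 3 of the knockdown was left out, with -0.51.

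In comparisons with the doubly treated group, Isg15 and Usp18 had to differ, since the count filter kept them through that group. Their values there are given as a description, and calls are counted over the 4 members with at least 60 counts in every group. With knockdown plus TNF against TNF alone, 3 of these 4 were called higher and Trim25 lower, where 25.4% of all genes were called higher and 26.9% lower. Isg15 had a fitted log2 fold change of 4.80 (SE 0.60) and Usp18 of 5.10 (SE 0.35). The enzymes had log2 fold changes of 0.99 for Uba7 (SE 0.17), 1.26 for Ube2l6 (SE 0.16) and 1.27 for Herc6 (SE 0.28), at edgeR adjusted p of 1.53e-05 to 0.00105. Trim25 fell by 0.42 on the log2 scale (SE 0.10, edgeR adjusted p = 0.00112).

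With knockdown plus TNF against the knockdown alone, 4 of the 4 were called higher, where 22.8% of all genes were. Trim25 rose by a log2 fold change of 1.15 here (SE 0.10, edgeR adjusted p = 3.69e-08), and Uba7 by 4.75 (SE 0.23). With knockdown plus TNF against control, 3 of the 4 were called higher and Trim25 lower, where 30.1% of all genes were called higher and 30.5% lower. Uba7 rose by 5.25 (SE 0.24), Ube2l6 by 3.03 (SE 0.18) and Herc6 by 2.53 (SE 0.31) on the log2 scale in that comparison, at edgeR adjusted p of 2.58e-11 to 1.27e-06, and Trim25 fell by 0.36 (SE 0.10, edgeR adjusted p = 0.00349).

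Whether TNF acted differently with the knockdown was read from the interaction, the log2 effect of TNF in knockdown organoids minus its log2 effect in the others. For 2 of the 4 members it was positive and passed, where 7.54% of all genes were called higher and 4.81% lower. The interaction was 1.54 on the log2 scale for Ube2l6 (SE 0.25, edgeR adjusted p = 0.00158) and 1.08 for Trim25 (SE 0.14, edgeR adjusted p = 6.87e-05). The interaction did not pass for Uba7 (0.49, SE 0.37, edgeR adjusted p = 0.446) or Herc6 (1.07, SE 0.44, edgeR adjusted p = 0.127). For Isg15 the ratio of counts with TNF was 478 (exact 95% counting interval 186 to 1757) in knockdown organoids and 16.3 in the others. For Usp18 the ratios were 333 and 3.64. Counting intervals leave out the spread among libraries, and the TNF group had 54, 7 and 7 counts of Isg15. The fitted interaction did not pass for Isg15 (4.86, SE 3.04, edgeR adjusted p = 0.362). It passed for Usp18 (6.34, SE 1.18, edgeR adjusted p = 0.00177), which the filter kept through the doubly treated group.

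**Figure D4:**
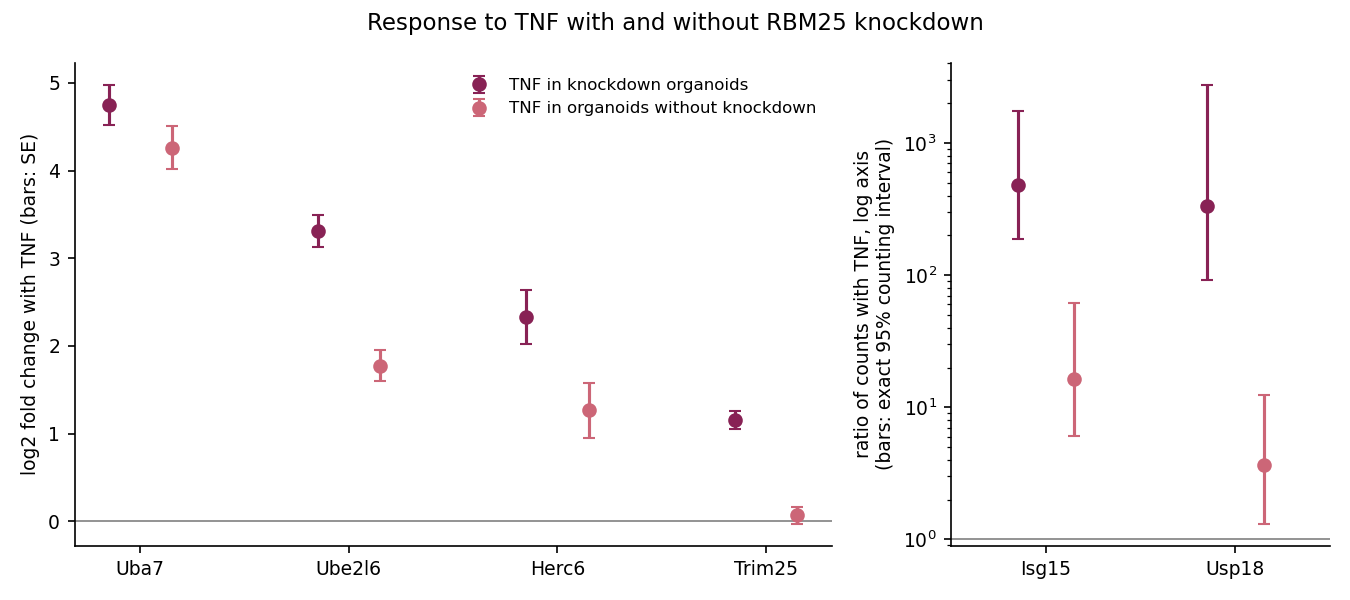
Left, log2 fold change with TNF in knockdown organoids and in organoids without knockdown for the 4 genes with at least 60 counts in every group, with bars of ± 1 SE. Right, ratio of counts with TNF for Isg15 and Usp18 on a log axis, with exact 95% counting intervals, which leave out the spread among libraries. The ratio for Isg15 is 478 in knockdown organoids and 16.3 without knockdown, and Trim25 is at 1.15 and 0.07 on the log2 scale.

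Per gene length, Ube2l6 and Isg15 led in the organoids with both treatments, at 26.4 ± 0.390 and 23.9 ± 4.61 FPKM (SD, n = 3), and their libraries overlap. Uba7 followed at 7.18 ± 0.431 FPKM, Usp18 at 3.54 ± 0.265 FPKM, Trim25 at 2.05 ± 0.146 FPKM and Herc6 at 0.965 ± 0.145 FPKM. In controls Ube2l6 had 3.06 ± 0.430 FPKM and Trim25 2.50 ± 0.00627 FPKM, with Uba7 at 0.178 ± 0.0814 FPKM and the other 3 lower still. The ratio of Usp18 to Isg15 FPKM with both treatments was 0.120, 0.141 and 0.201. In the inner ear it was 0.311 to 0.661 over the 12 libraries, and these values come from tables that were normalized separately.

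Across the 12 organoid libraries the genes most like Isg15 were Slfn8, Irf7, Oas1a, Lgals9 and Nts, each at r of 0.99 or above. Those most like Usp18 were Oasl1, Ifi44, Nts, Oas1a and Mpeg1, each at r of 0.99 or above, with mean Ifi44 at 12.6 CPM with both treatments, 0.277 CPM with TNF, 0.0933 CPM with the knockdown and 0.0192 CPM in controls. These r values rest on 1 group of 3 libraries that stands far from the other 9. After the mean of each group was removed, r among pairs of the 6 members was -0.60 to 0.60, with a median of 0.25.

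Genes around the pathway again help to place these values. Over all genes, 23.3% were called higher and 24.2% lower with TNF against control, and 24.4% and 28.2% with the knockdown against control. With TNF against control, Ifngr2, a chain of the interferon gamma receptor, averaged 120 ± 5.89 CPM with TNF and 17.2 ± 0.287 CPM in controls, Ifngr1 rose by 1.02 on the log2 scale, and Ifnar1, Il10rb and Jak1 were called higher as well. Stat2 (-0.20) and the interferon lambda receptor gene Ifnlr1 (-0.14, both log2) were called lower. With the knockdown alone against control Stat2 fell by 0.61 and Irf9 by 0.71 on the log2 scale, Ifnar1, Ifngr2, Ifnlr1, Il10rb, Jak1, Jak2 and Tyk2 were called lower too, and Ifnar2 was called higher (0.41). Stat2 averaged 51.3 ± 4.31 CPM with both treatments, 27.9 ± 1.99 CPM with TNF, 21.0 ± 2.23 CPM with the knockdown and 32.1 ± 0.890 CPM in controls. In the interaction, Stat2 (1.49) and Irf9 (1.18) were called higher and the receptor gene Ifnar2 lower (-0.26, all log2), and these were named after their values were seen.

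Of 4 IRF genes, Irf8 (log2 fold change 3.67) and Irf1 (3.06) rose with TNF against control and Irf7 did not pass (1.39, edgeR adjusted p = 0.0528). With both treatments against TNF alone Irf7 was the one of the 4 called, at 36.3 ± 7.23 CPM with both and 1.67 ± 1.23 CPM with TNF. Of 22 other interferon-stimulated genes tested, 15 were called higher and 1 lower with TNF against control, led by Rtp4 (27.8 ± 3.20 CPM with TNF and 2.69 ± 0.208 CPM in controls), Parp14 and Bst2. With the knockdown alone against control 4 were called higher and 7 lower. With both treatments against TNF alone 21 were called higher and none lower, where 25.4% of all genes were called higher and 26.9% lower. In the interaction 17 were higher and none lower, where 7.54% of all genes were called higher and 4.81% lower. Some of the genes counted, such as Oas1a and Oasl1, were near 0 without both treatments, as Isg15 was. Their calls rest on the doubly treated group, so these counts are given as a description. Of 10 NF-kB target genes 10 were called higher with TNF against control, with Nfkbia at 619 ± 6.15 CPM with TNF and 35.9 ± 1.13 CPM in controls. With both treatments against TNF alone 3 of them were called higher and 3 lower, with a median log2 fold change of -0.12.

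Of the 13 parallel enzymes and HERC relatives tested, 5 were called higher and 1 lower with TNF against control, with a median log2 fold change of 0.10, and the largest of the 3 with the smallest p was 0.32 for Uba3. The shares over all genes in that comparison were 23.3% higher and 24.2% lower. Of the 6 genes for another ligase and other proteases reported for ISG15, 1 was called higher (Usp14, 0.38) and 3 lower with TNF against control, among them Usp2 at -1.16 and Usp21 at -0.37. Of 13 genes for reported carriers of ISG15, 9 were called higher and 1 lower with TNF against control, led by Ddx58 (1.82) and Trp53 (1.41). With the knockdown alone against control 9 were called lower and none higher, where 28.2% of all genes were called lower and 24.4% higher. The lists share genes, such as Ifit1, Ifih1 and Eif2ak2, which are also counted among the other interferon-stimulated genes. Of 9 interferon ligand genes 5 were listed and none passed the count filter. Ifnb1, the interferon beta gene, had 3 counts in all, in replicate 2 of knockdown plus TNF, and none in the other 11 organoid libraries, where a count of 0 allows up to 3. Ifne ran the other way, with 5 counts in controls, 2 with TNF, 2 with the knockdown and 0 with both treatments. Counts this low do not order the groups.

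Of 12 macrophage markers 6 were listed in the organoid table, with a summed level of 9.57 to 11.6 CPM with knockdown plus TNF, 2.56 to 3.67 CPM with TNF, 1.00 to 1.43 CPM with the knockdown and 1.06 to 1.59 CPM in controls. The sum moved with Isg15, mostly through Aif1, at 7.68 to 9.62 CPM with both treatments and 0 in controls. The defining markers Csf1r and Ptprc had 1 and 0 counts in all with knockdown plus TNF, 0 and 0 with TNF and with the knockdown, and 0 and 1 in controls. Mpeg1 moved with Isg15, with 71 counts with both treatments, 5 with TNF, 1 with the knockdown and 0 in controls, which allows up to 3. Cd68 had 143 counts with both, 121 with TNF, 119 with the knockdown and 135 in controls. C1qb had 13 counts with both, 8 with TNF, 11 with the knockdown and 6 in controls. A neutrophil list moved in the same way, at 20.9 to 23.1 CPM with both and 0.660 to 0.883 CPM in controls, through the antimicrobial peptide gene Camp, with 3 of its 7 markers listed. A bone list was high through Ibsp in replicates 1 and 2 with both treatments, at 52.7 and 98.1 CPM. It was at 0.566 CPM in replicate 3 of that group and at most 0.324 CPM elsewhere. The part of such cells in the organoid values of Isg15 was not tested.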

How the data were processed

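RNA was measured in 12 inner ear and 12 organoid libraries, prepared with an unstranded TruSeq kit per the labels' protocols. The deposited count tables hold whole reads per gene, as counts without normalization. The deposited FPKM tables hold values scaled by the authors to gene length and depth. The mm10 build and the tools DESeq2, HISAT2, HTSeq and Trimmomatic are listed in the submitters' processing notes, with no version or setting.

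edgeR 4.0.16 (R 4.3.3) was run on all genes of each count table (TMM factors, filterByExpr, robust quasi-likelihood F-test, two-sided, 1 coefficient per group). The filter kept 15525 genes of the inner ear and 15888 of the organoids, and the Benjamini-Hochberg adjustment ran over them. CPM use TMM-scaled library sizes. Where a group total was under 10 counts, a ratio with an exact 95% counting interval stands for the fold. Fitted values are printed beside it only for the interaction and where alternatives are compared. The fit was tested on simulated data. In levels set beside a mean, ± is the SD over libraries.

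The 6 genes, the gene lists, the tests and the alternatives were chosen with earlier results of these data known. Named in each list were up to 3 called genes with the smallest p at 20 against 3 months and with TNF against control, and for likeness the 5 genes with the highest r. An item of the interferon signalling list, and the counts over that list, are not reported here. In no group did a pair of libraries agree within sampling noise. Same-numbered libraries did not deviate together in every pair, with correlations of -0.35 to 0.37, so no number was taken to pair them. Alternatives were DESeq2 1.42.0 and its size factors, limma 3.58.1 on log2(FPKM + 1) and log2(FPKM + 0.1), no filter, only the compared libraries, a replicate block, and each library left out. Promoters and gene positions are from RefSeq on GRCm38.p6, and shared exons from GENCODE. Figures were drawn with matplotlib 3.10.9.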

Additional observations from a re-analysis of the deposited data

Results flagged for a closer look

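Among the 18 sets of 4 inner ear values (6 genes at 3 ages), 3 held a library separated from the others by more than the 95% critical value of Dixon's gap test, which chance passes in about 1 of 20 sets. Uba7 had 9.31 CPM in replicate 1 of 3 months and 12.3 to 12.6 CPM in the other 3 libraries of that age. Ube2l6 had 41.7 CPM in replicate 2 of 11 months and 12.3 to 14.9 CPM in the others. In that library 124 of 15525 genes exceeded double the next highest library of the same age, where the 12 inner ear libraries ranged from 8 to 191 genes. Herc6 had 8.30 CPM in replicate 1 of 11 months and 11.8 to 12.1 CPM in the others.

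In the organoids, the effect of TNF differed between organoids with and without the knockdown for Ube2l6 (interaction 1.54 on the log2 scale) and Trim25 (1.08), as tested by the interaction in edgeR.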

How the results depend on the processing

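Of the alternative values for single members, 755 kept direction and side of the threshold, 17 passed where they had not, 33 no longer passed and 13 changed sign. Numbers of members called are over all 6 genes as fitted, so in the organoids they include Isg15 and Usp18, which the filter kept through the doubly treated libraries. The members called kept their number in the 3 comparisons of knockdown plus TNF under every alternative. For Isg15 and Usp18 the filter had settled this in advance. Of all genes, the main fit called 52.3% against TNF alone, 44.8% against the knockdown alone and 60.7% against control there. Leaving out 1 library gave 3 to 5 members called at 20 against 3 months, 0 to 1 at 11 against 3, 0 to 2 at 20 against 11, 3 to 5 with TNF against control, 1 to 2 with the knockdown against control and 3 to 4 in the interaction. Over all genes it gave 2211 to 3951 calls at 20 against 3 months and 787 to 3632 at 20 against 11. With TNF against control it gave 6540 to 7159, with the knockdown against control 7429 to 7989, and in the interaction 1221 to 2337. The main fit called 22.7%, 15.8%, 47.5%, 52.6% and 12.3% of all genes in these comparisons, in that order. limma on log2(FPKM + 1), with or without the filter, called 0 members at 11 against 3 months, 3 with TNF against control and 6 in the interaction. The fit of only the compared libraries called 1 member at 20 against 11 months and 3 with TNF against control, where its filter removed Isg15 and Usp18. The replicate block called 1 member at 20 against 11 months and 5 at 20 against 3 months, where Isg15 passed (edgeR adjusted p = 0.0184), and changed no other number of members called. Isg15 also passed there by DESeq2 (adjusted p = 0.0402).

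Ube2l6 at 20 against 11 months, -0.12 on the log2 scale, became 0.0301 with the replicate block, 0.0555 with limma on log2(FPKM + 1) with or without the filter and 0.0663 on log2(FPKM + 0.1), and ranged from -0.30 to 0.47 with 1 library left out, positive when 11-month replicate 2 or 20-month replicate 4 was. Isg15 there ranged from -0.0791 (20-month replicate 3 left out) to 0.58. With the knockdown against control, Isg15 became 0.0045 with limma on log2(FPKM + 1) with or without the filter, and 0.11 on log2(FPKM + 0.1), and ranged from -0.61 to 3.54 with 1 library left out, all fitted on at most 4 counts per group, where the ratio of counts was 0.956 (exact 95% counting interval 0.178 to 5.13), while Herc6 ranged from -0.14 to 0.62. None of these values passed. The cause was not tested. Over all genes, 242 were called at 11 against 3 months, and 38 to 137 with 1 library left out. Depth limits Isg15 and Usp18 in organoids without both treatments, at 2 to 68 counts per group.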
